A study of Nannospalax ehrenbergi and Mus musculus with 14 samples.

Results

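Neck muscle of the blind mole rat *Spalax* was compared with neck muscle of the mouse, in both species on the side of the neck away from the injection (uninjected side, UIS). The 6 libraries were chosen by name from the 14 of the series: the UIS of *Spalax* animals Sp600, Sp976, Sp2240 and Sp2230, and of the mice M1023 and M512. These are the UIS libraries of the table that scaled both species together, and a microRNA was compared only where each species had at least 1 read of it. All 6 animals carried a growth (granuloma or fibrosarcoma) on the other side of the neck after a single subcutaneous injection of the carcinogen 3-methylcholanthrene (3MCA) into the left flank of the neck, so no library here came from an untreated animal.

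Sp600 and Sp976 bore a granuloma, Sp2240 and Sp2230 a fibrosarcoma, and both mice a fibrosarcoma. The *Spalax* were caught in the field, 3 were female and 1 (Sp2230) was male, their ages were estimated at 2 to over 10 years, and they were sampled 14, 16, 18 and 30 months after 1 mg of 3MCA. The mice were males of the inbred C57BL/6 strain, 3 to 4 months old, sampled 12 and 11 weeks after 200 µg of 3MCA. Strain, age, time after injection and dose went wholly with the species and cannot be told apart from it in this design. Sex went with it except for Sp2230, so a fit with sex as a covariate rests on that animal. Another mouse UIS library, called the third mouse below, came from a male sampled 14 weeks after injection. Its column in a separately scaled table bears another animal number than its label. Its values are given as RPM, its reads on a name scaled to a fixed library total, or as shares of its reads. It entered fits and tests only as an alternative setting.

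MicroRNAs are short RNAs cut from hairpin precursors, with a 5p and a 3p arm, that lower the output of messenger RNAs they pair with. Skeletal muscle is rich in a small set of them, the myomiRs: miR-1 and the miR-133 family, common to skeletal and cardiac muscle, miR-206, made mostly in skeletal muscle, and miR-208b and miR-499, which lie in introns of the myosin heavy chain genes Myh7 and Myh7b and go with slow, oxidative fibers. *Spalax* lives underground and tolerates low oxygen and high carbon dioxide. Reads of both species were counted under mouse microRNA names, so a *Spalax* microRNA whose sequence differs from the mouse one could lose reads, and for any single name this cannot be told apart from a lower level.

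The sequences of these myomiR hairpins are given first because the muscle result turns on them. They are the mouse precursors (build GRCm38, GENCODE transcripts), 5′ to 3′ on the strand given, with T for U. Mir206 lies at chr1:20679010-20679082 on the plus strand in an exon of the noncoding RNA Gm28653, and Mir1a-1 at chr2:180389048-180389124 on the plus strand. The capitals mark the longest run of letters that both hairpins share, 13 letters.
Mir206: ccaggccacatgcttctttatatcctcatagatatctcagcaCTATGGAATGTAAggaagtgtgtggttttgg
Mir1a-1: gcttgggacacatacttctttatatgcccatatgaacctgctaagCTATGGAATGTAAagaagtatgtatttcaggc

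Mir208b lies at chr14:54975700-54975776 on the minus strand in an intron of Myh7, and Mir499 at chr2:155622880-155622958 on the plus strand in an intron of Myh7b. The capitals mark their longest shared runs, 2 runs of 6 letters.
Mir208b: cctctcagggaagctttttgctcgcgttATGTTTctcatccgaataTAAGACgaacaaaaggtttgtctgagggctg
Mir499: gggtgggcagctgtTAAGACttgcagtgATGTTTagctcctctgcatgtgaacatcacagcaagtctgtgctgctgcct

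The microRNA with the largest excess in *Spalax*, miR-135a-5p, is made from 2 mouse hairpins. Mir135a-1 lies at chr9:106154124-106154213 on the plus strand, within an exon of Glyctk on the opposite strand, and Mir135a-2 at chr10:92072086-92072185 on the minus strand in an intron of the noncoding RNA Rmst. They share a run of 24 letters, in capitals.
Mir135a-1: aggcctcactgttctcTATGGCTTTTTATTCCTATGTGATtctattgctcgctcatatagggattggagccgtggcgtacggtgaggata
Mir135a-2: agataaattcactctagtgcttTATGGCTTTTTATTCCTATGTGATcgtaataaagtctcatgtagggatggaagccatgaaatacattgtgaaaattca

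The next pair is shown because the 3p names of miR-199a and miR-199b held identical values while their 5p names did not. Mir199b lies at chr2:32318460-32318569 on the plus strand, opposite an intron of Dnm1, and Mir199a-1 at chr9:21496495-21496564 on the minus strand. They share a run of 28 letters, in capitals, toward their 3′ ends.
Mir199b: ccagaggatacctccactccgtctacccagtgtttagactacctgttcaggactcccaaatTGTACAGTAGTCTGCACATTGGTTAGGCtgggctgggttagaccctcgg
Mir199a-1: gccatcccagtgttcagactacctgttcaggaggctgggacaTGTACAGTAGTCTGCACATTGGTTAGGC

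Mir486, at chr8:23142555-23142682 on the plus strand, is shown because the names miR-486a-5p and miR-486b-5p held identical values in every library. It holds 2 runs of 22 letters, in capitals, that are each other's reverse complement. The 5p reads appear to have been counted under both names.
Mir486: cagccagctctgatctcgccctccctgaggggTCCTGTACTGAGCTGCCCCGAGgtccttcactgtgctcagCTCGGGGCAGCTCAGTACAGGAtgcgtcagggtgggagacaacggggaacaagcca

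Mir676 and Mir434 are the mouse precursors of 2 of the names most reduced in *Spalax*. Mir676 lies at chrX:100381097-100381185 on the plus strand in an intron of Eda, and Mir434 at chr12:109594506-109594599 on the plus strand, opposite an exon of Rtl1. No letters are in capitals in these.
Mir676: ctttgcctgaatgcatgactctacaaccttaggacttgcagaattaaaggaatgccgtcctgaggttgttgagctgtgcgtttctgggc
Mir434: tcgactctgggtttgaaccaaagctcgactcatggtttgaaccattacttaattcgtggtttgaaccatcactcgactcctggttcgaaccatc

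The 6 libraries held 11557482 to 13982842 reads on microRNA names, so 3 reads made up at most 2.6e-05% of a library, and the 10 most abundant names took 76.8% to 86.3% of the reads. Of 1326 names, 549 had reads in both species, 381 in mouse libraries only, 69 in *Spalax* libraries only and 327 in none. Of the mouse-only names 279 (73.2%) were numbered above 1000, a range given to microRNAs described late, against 64 (11.7%) of the names with reads in both species. They were scarce: they made up 0.0385% and 0.0233% of the reads of M1023 and M512. In the other direction, miR-452-5p had 60, 29, 230 and 75 reads in Sp600, Sp976, Sp2240 and Sp2230 and none in these mice.

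The library of M512 stood apart. It held 27917 normalized counts of miR-196a-5p, 2759 of miR-196b-5p and 747 of miR-615-3p, which lie in Hox clusters, against 6.21, 3.11 and 6.21 in M1023, and *Spalax* libraries had 29.8 to 67.3 of miR-196a-5p. M512 also carried more than M1023 of the red-cell microRNAs miR-451a (102558 against 19693) and miR-486-5p (3818823 against 1117742). Among 252 names with a mean of at least 100, these mice differed by more than 4-fold for 13 (5.16%) and more than 8-fold for 5, and pairs of *Spalax* for 1 to 8 (0.397% to 3.17%) and 0 to 2. Counts and named values that changed most without M512 are given without it as well.

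Muscle as the tissue held in all 6 libraries by the markers below. These markers do not test the site in the neck, and M512 differed from M1023 in the Hox-cluster names given above. The myomiRs took 35.2% to 37.3% of the reads in *Spalax* and 27.7% and 28.7% in the mice. These totals count miR-486-5p under both its names, and shares with identical names counted once are given below. Several defining microRNAs of other tissues were near 0: the highest count in any UIS library was 13 reads for the epithelial miR-200b-3p, 7 for miR-200a-3p and 6 for miR-429-3p, 45 for the neural miR-124-3p, and 65 for miR-122-5p of liver, while miR-124-5p had no read in any. Other names of these lists were not: the epithelial miR-203-3p had 17 to 69 reads in *Spalax* and 2355 and 314 in M1023 and M512, and the neural miR-9-5p had 405 to 1026 reads in the 6 libraries. In bulk tissue fewer cells of a type and less RNA per cell cannot be told apart.

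The myomiRs of the muscle list were either level between the species or higher in *Spalax*. The list leaves out miR-486, which is also transcribed in muscle. Its names were higher in the mice and are given with the red-cell microRNAs below. Of the 17 names on the muscle list 16 had a read in some library and 11 passed the filter on low values (at least 10 normalized counts in at least 2 libraries, and reads in both species). Of these, 6 passed the test with *Spalax* higher, 0 with the mouse higher, and 5 did not pass. A pass here is an adjusted p under 0.05 in limma on log2(normalized count + 1), and 42.8% of the 437 microRNAs tested passed, 19.9% with *Spalax* higher. The median log2 difference (*Spalax* minus mouse) was 1.33 over the 11 names and -0.01 over all 437. Without M512, 4 of the 11 passed, and with sex as a covariate 2. Across all alternative settings the number of muscle names that passed with *Spalax* higher ranged from 2 to 6, and none passed with the mouse higher.

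miR-206-3p, the skeletal muscle member of the miR-1 family, had 19192, 21872, 22845 and 26058 normalized counts in Sp600, Sp976, Sp2240 and Sp2230, and 1629 and 1157 in M1023 and M512. Every *Spalax* library lay far above both mice, and the *Spalax* animals were close to each other. The log2 difference was 4.02 ± 0.25 (SE, n = 4 and 2; adjusted p = 1.83e-05). The third mouse had 192 RPM, against 1172 to 1838 in *Spalax*. All values from here on follow this order of animals.

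miR-499-5p, of the slow-fiber gene Myh7b, had 2341, 8505, 4361 and 2615 normalized counts in *Spalax* and 470.1 and 26.5 in the mice. The groups did not overlap, but the mice were far apart. The log2 difference was 5.09 ± 0.97 (adjusted p = 0.00286), and 3.04 without M512 (adjusted p = 0.00855). Its other arm, miR-499-3p, had 21.3, 63.5, 29.1 and 26.5 against 6.21 and 0, a log2 difference of 3.62 ± 0.81 (adjusted p = 0.00604, and 2.19 without M512).

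miR-208b-3p, of the slow myosin gene Myh7, had 1759, 6733, 4089 and 2322 normalized counts in *Spalax* and 1299 and 65.5 in the mice. Sp976 was highest for both intronic myomiRs and M512 lowest for both, and M1023 came close to Sp600 in miR-208b-3p. The log2 difference of 3.47 ± 1.01 passed (adjusted p = 0.0213), and it was 1.33 without M512. The call was lost in 11 of the alternative settings, both edgeR tests with M512 kept among them. The third mouse resembled M1023, with 88.1 RPM against 93.1 in M1023, 3.00 in M512 and 107 in the lowest *Spalax*, and with it added the difference was 2.83 (adjusted p = 0.0262).

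miR-1a-3p had 308805, 172003, 175848 and 186762 normalized counts in *Spalax* and 122643 and 89465 in the mice. Sp600 was high among the 4, and the lowest *Spalax* was still above both mice. The log2 difference was 0.96 ± 0.28 (adjusted p = 0.0211), it was 0.74 without M512, and it did not pass in 7 of the alternative settings. The lesser arms of its 2 hairpins parted: miR-1a-2-5p had 105, 94, 130.3 and 67.4 against 3.11 and 12.5 (log2 difference 3.71 ± 0.55, adjusted p = 0.000757), and miR-1a-1-5p had 83.6, 81.3, 114 and 60.2 against 82.8 and 175 (adjusted p = 0.35).

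The most abundant microRNA of the tissue, miR-133a-3p, had 5702421, 5263997, 4842163 and 4712655 normalized counts in *Spalax* and 3822854 and 5864999.9 in the mice. The mice lay on either side of all 4 *Spalax*, and the log2 difference was 0.11 ± 0.20 (adjusted p = 0.669). miR-133b-3p, from the same hairpin cluster as miR-206, had 67762, 67107, 69374 and 53830.3 against 45554 and 72058 (log2 difference 0.16 ± 0.24, adjusted p = 0.615). Thus the cluster partners miR-206 and miR-133b gave unlike differences, 4.02 and 0.16. miR-133a-5p and miR-133b-5p gave log2 differences of 0.17 and 1.33 and did not pass (adjusted p = 0.615 and 0.191).

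**Figure D1:**
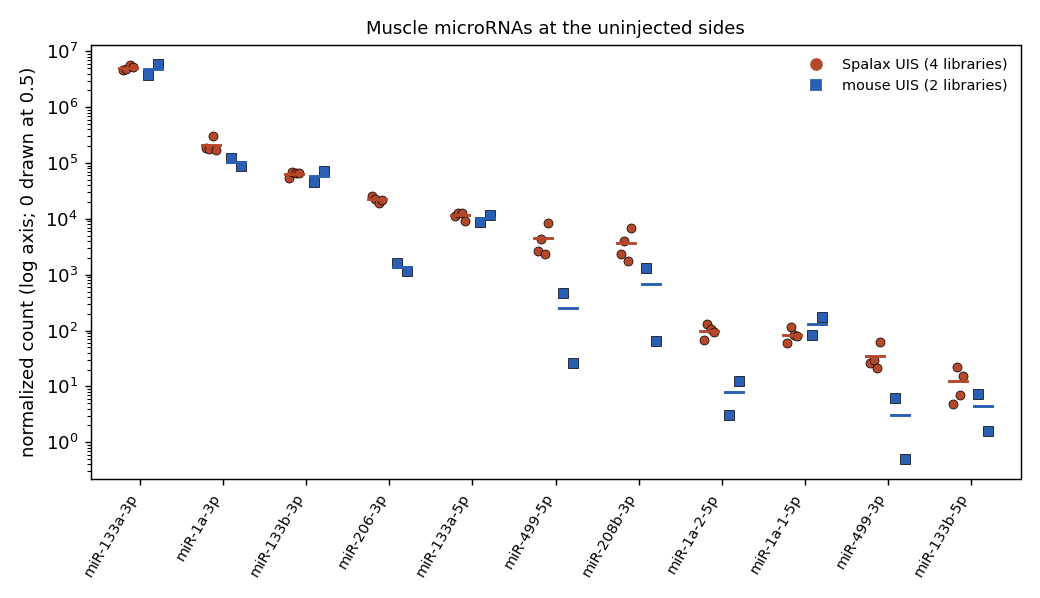
Normalized counts (log axis) of the 11 tested muscle microRNAs in each of the 4 *Spalax* UIS libraries (circles) and 2 mouse UIS libraries (squares), with a bar at each group mean and a value of 0 drawn at 0.5. miR-206-3p and miR-1a-2-5p show well separated groups, miR-133a-3p and miR-133b-3p overlapping ones, and M512 is the lower square for miR-499-5p (26.5) and miR-208b-3p (65.5).

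As a share of microRNA reads, which no scaling between libraries can move, the muscle list took 37.3%, 35.3%, 36.5% and 35.2% in *Spalax* (36.1% ± 1.01, SD, n = 4) and 28.7% and 27.7% in the mice (28.2% ± 0.724, SD, n = 2). All *Spalax* lay above both mice, a difference of 7.90 percentage points (two-sided exact permutation test, p = 0.133, the smallest that 4 against 2 libraries allow). The third mouse, at 29.8%, lay with the other mice, and with it the difference was 7.37 points (exact permutation p = 0.0571, again the smallest possible). The share of red-cell microRNAs moved the other way, 2.71% to 4.81% in *Spalax*, 16.2% and 35.6% in M1023 and M512 and 14.4% in the third mouse, with miR-486-5p counted under both its names. With identical names counted once, the muscle share was 35.9% to 38.2% in *Spalax* and 31.4% and 33.7% in M1023 and M512. The difference was then 4.39 points (exact permutation p = 0.133). With miR-486 left out of the total, the muscle share was 36.3% to 38.8% in *Spalax* and 34.2% and 42.7% in the mice, and the difference was -1.13 points (exact permutation p = 0.667).

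Over all microRNAs, 187 of 437 passed (42.8%): *Spalax* was higher for 87 (19.9%) and the mouse for 100 (22.9%). The values of the species did not overlap for 249 names (57%), with *Spalax* higher for 117 (26.8%) and the mouse for 132 (30.2%), and 62 of the 249 did not pass. With a minimum value asked of each species 129 passed, 68 with *Spalax* higher and 61 with the mouse higher, and with scaling to library totals 177 passed, 89 and 88. The median log2 difference was 1.92 among the 87 and -2.79 among the 100, and 9 of the 87 but 33 of the 100 were past 16-fold. For 23 of the 100 no *Spalax* library held more than 3 reads, against 6 of the 87 for which no mouse library did. Without M512 136 passed, 68 in each direction. Of the names described here, miR-1a-3p, miR-208b-3p, miR-370-3p, miR-193b-3p, miR-23b-3p, miR-24-3p, miR-29c-3p, miR-30e-5p, miR-143-5p, miR-145a-5p, miR-181b-5p, miR-204-5p, miR-34b-5p, miR-96-5p and miR-99b-5p then no longer passed. With sex as a covariate, which leaves Sp2230 alone against the mice, 92 passed (35 with *Spalax* higher).

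Many abundant microRNAs differed little. Among the 50 with the highest mean, 27 lay within 1.5-fold, against 140 of 437 (32.0%) over all tested, and 23 passed, 17 with *Spalax* higher and 6 with the mouse higher. miR-22-3p had 1732960.4 to 2677051 normalized counts in *Spalax* and 1713742 and 1899996 in the mice (log2 difference 0.27 ± 0.20, adjusted p = 0.296), and miR-10b-5p, miR-378a-3p and let-7f-5p also lay within the spread of the libraries. In the third mouse library, which took no part in the test, RPM lay below all *Spalax* for 75 of the 87 names and above all *Spalax* for 100 of the 100. The matching shares over all 437 names were not counted. A mouse name that misses *Spalax* reads would put any mouse library above *Spalax*, so these counts are no separate test of the species difference.

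**Figure D2:**
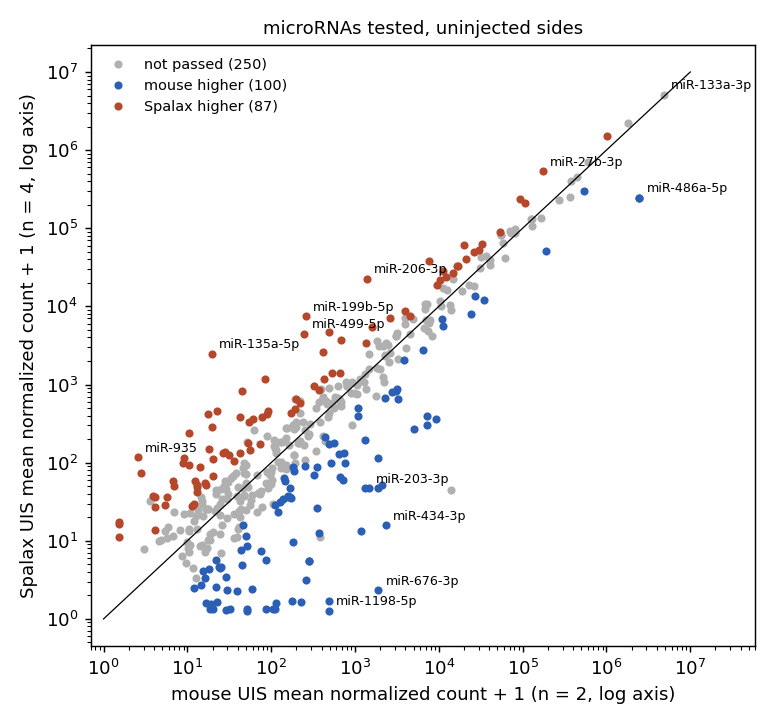
Mean normalized count + 1 of the 437 microRNAs tested, mouse UIS (x axis, n = 2) against *Spalax* UIS (y axis, n = 4), both on log axes, with a line of equality. Names that passed lie off the line on both sides (87 above, 100 below), the points farthest below it are at or near 0 in *Spalax* (miR-676-3p, miR-1198-5p), and the most abundant name, miR-133a-3p, lies on it.

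The largest excess in *Spalax* outside the muscle list was that of miR-135a-5p, known to repress the Wnt pathway regulator Apc. It had 3768, 2780.1, 1743 and 1620.1 normalized counts in *Spalax*, and 37.3 in M1023 and 0 in M512, where no read was found. All *Spalax* were above both mice, and the third mouse, at 1.05 RPM, was below the *Spalax* range of 114 to 230. The log2 difference was 8.56 ± 1.15 (adjusted p = 0.000463), and 5.93 without M512. Its partner arm from 1 of the 2 hairpins, miR-135a-2-3p, had 94.9, 80, 48.5 and 69.8 against 2.07 and 1.56, or 233 reads against 3, a ratio of 38.4 (95% counting interval 13 to 187), while miR-135a-1-3p had no read in any of the 6 libraries.

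miR-199b-5p, a microRNA of fibroblasts and other mesenchymal cells, had 7426, 3597, 12905 and 5954 normalized counts in *Spalax* and 235 and 279 in the mice. The groups were far apart, with a log2 difference of 4.71 ± 0.45 (adjusted p = 8.49e-05). The other fibroblast microRNAs differed in the same direction but by less, and did not pass. Over the list the lowest log2 difference was 0.38 and the median 0.55. miR-199a-5p had 8946, 6329, 16868 and 10394 against 6399 and 7164, overlapping (log2 difference 0.56 ± 0.36, adjusted p = 0.247). Of the 6 fibroblast names tested miR-199b-5p alone passed.

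miR-935 had 83.6, 102, 118 and 162 normalized counts in *Spalax* and 0 and 3.12 in the mice, 384 reads against 2, a ratio of 94.9 (26.1 to 786). miR-3535 had 859, 921, 783 and 697 against 40.4 and 46.8, with little spread in either species (log2 difference 4.19 ± 0.30, adjusted p = 2.15e-05). miR-500-3p, from an intron of Clcn5 on the X chromosome, had 1248, 959, 1362 and 1182 against 80.8 and 87.4 (3.79 ± 0.30, adjusted p = 2.36e-05). In all 3 the *Spalax* animals resembled each other and none came near the mice.

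miR-505-3p had 252, 240.1, 304 and 353 normalized counts against 12.4 and 25 (log2 difference 3.93 ± 0.40). miR-582-5p, from an intron of the phosphodiesterase gene Pde4d, had 272, 313, 599.7 and 481 against 25.9 and 7.8 (4.69 ± 0.53). miR-493-5p, of the imprinted Dlk1-Dio3 cluster, had 198, 456, 121 and 176 against 5.18 and 14 (4.45 ± 0.59). These 3 passed (adjusted p = 8.95e-05, 0.000166 and 0.000428) with no overlap. miR-363-3p, of an X-linked paralog of the miR-17-92 cluster, was more scattered, with 113, 196, 459.8 and 1086 against 14.5 and 28.1 (3.94 ± 0.80, adjusted p = 0.00388), Sp2230 being highest.

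The largest deficits in *Spalax* were of microRNAs almost without reads there. miR-676-3p, whose hairpin is shown above, had 2.83, 2.54, 0 and 0 normalized counts in *Spalax* and 1825 and 1965 in the mice, and its other arm, miR-676-5p, had 288 and 167 reads in the mice and none in *Spalax*. Its fitted log2 difference was -9.95 ± 0.69 (adjusted p = 1.87e-05), a value that for such low counts depends on the pseudocount of 1. miR-1198-5p, from an intron of Gripap1, had 1 read in all *Spalax* libraries together and 754 in the mice, a scaled ratio of 1526 (95% counting interval 273 to 60360). Both names were at mouse levels in the third mouse, at 183 and 32.1 RPM.

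miR-345-5p had 2 reads in *Spalax* and 766 in the mice, a ratio of 775 (214 to 6413). miR-339-3p, from an intron of a protein-coding gene, had 2 against 377 (382, 105 to 3162). Both arms of miR-674 were at most 2 reads in *Spalax*: 2 against 284 for miR-674-3p (287, 78.8 to 2385) and 1 against 175 for miR-674-5p (354, 62.7 to 14070). Reads of these names came from every mouse library and from at most 2 of the 4 *Spalax* libraries.

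Both arms of miR-434, of the imprinted Dlk1-Dio3 cluster and antisense to Rtl1, were low in *Spalax*. miR-434-3p had 29.8, 7.62, 6.46 and 15.6 normalized counts against 2130.1 and 2527 (log2 difference -7.43 ± 0.58, adjusted p = 2.36e-05), and miR-434-5p had 2.83, 2.54, 2.15 and 1.2 against 269 and 248 (-6.38 ± 0.49, adjusted p = 2.36e-05). miR-541-5p, farther along the cluster, had 25.5, 6.35, 8.61 and 8.43 against 1344 and 1028 (-6.67 ± 0.55, adjusted p = 2.91e-05). Sp600 was the highest *Spalax* for these, and no *Spalax* came near a mouse.

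Further deficits rested on uneven *Spalax* values. miR-351-5p, of the X-linked cluster of miR-322 and miR-503, had 164, 10.2, 2.15 and 10.8 normalized counts against 1457 and 1171, Sp600 standing apart (log2 difference -6.33 ± 1.25, adjusted p = 0.00334). miR-669a-5p and miR-669p-5p, from introns of Sfmbt2 and with identical values, had 17.8 in Sp976, 0 in the other 3 *Spalax*, and 275 and 284 in the mice (-7.07 ± 1.16, adjusted p = 0.00127). This cluster has expanded in the mouse lineage: 43 of its 74 names had reads, 35 of them in mice only, and the 3 of 4 tested that passed, which met the filter through their mouse values, were 1 more name and this identical pair. The fourth, miR-466i-5p, had 582, 241, 111 and 382 against 234 and 249.6, overlapping (0.20 ± 0.59, adjusted p = 0.806).

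Markers of other cell types were unequal between the species in some lists and not in others, and their part in the differences above was not tested. All 4 smooth muscle names (miR-143 and miR-145a, both arms) were lower in *Spalax*, where 22.9% of all names were, with a median log2 difference of -1.02: miR-143-3p had 266501, 269535, 314651 and 332205 against 554838 and 518568 (-0.87 ± 0.18, adjusted p = 0.00449). Their summed share was 1.68% to 2.39% of reads in *Spalax* and 4.06% and 2.44% in the mice, and none was at 0. Without M512 2 of the 4 passed, and with scaling to library totals 1 did.

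Of the 7 red-cell names 4 passed with the mouse higher (22.9% of all names did), all of them names of miR-486 with its 5p reads counted under both, and the median was -3.12, or -4.00 to -1.92 across the settings. miR-486-5p had 299759, 204407, 174676 and 302109 normalized counts in *Spalax* and 1117742 and 3818823 in the mice (log2 difference -3.12 ± 0.44, adjusted p = 0.000648, and -2.23 without M512). miR-451a, the most red-cell restricted of the list, overlapped, with 30143, 34781, 29549 and 73633 against 19693 and 102558 (-0.21 ± 0.61, adjusted p = 0.806, and 0.98 without M512). miR-486 is also transcribed in muscle, from the Ank1 gene, and the list therefore does not hold red-cell microRNAs alone.

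Leukocyte microRNAs (miR-223, miR-142a, miR-150 and miR-342) took 0.0616% to 0.0907% of reads in *Spalax* and 0.0850% and 0.0700% in the mice, and 1 of 7 passed, miR-223-5p with *Spalax* higher (1.54). Over all names 19.9% passed with *Spalax* higher, so this count and the next are not above the background. Of 6 inflammatory names 1 passed, miR-146b-3p (1.70). It had only 10, 7, 12 and 12 reads in *Spalax* and 3 and 2 in the mice, so this call rests on few reads. miR-21a-5p had 38629.9, 25459, 75633 and 29815 against 34194 and 29625 (0.28 ± 0.40, adjusted p = 0.602), and miR-155-5p gave -0.26 ± 0.39 (adjusted p = 0.615). Of the endothelial names neither arm of miR-126a passed (0.36 and 0.11), at 0.784% to 0.993% of reads in *Spalax* and 1.10% and 0.323% in the mice. M512 had the lowest share of this list.

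The adipose, neural and epithelial lists had few names each. Their counts were not far from the shares over all names, 19.9% with *Spalax* higher and 22.9% with the mouse higher. Of 9 adipose names 2 passed in each direction: miR-193b-3p (1.14, and 0.86 without M512, not passed) and miR-193b-5p (1.61) were higher in *Spalax*, and miR-193a-3p (-2.92) and miR-365-2-5p (-4.24) in the mice. Of 7 neural names miR-128-3p and miR-128-2-5p were higher in *Spalax* and miR-138-5p and miR-138-1-3p in the mice. miR-128-3p, abundant in brain and in muscle, had 36059, 44420.2, 45565 and 25111 against 7353 and 8096 (2.25 ± 0.28, adjusted p = 0.000298). Of 5 epithelial names miR-203-3p passed, at 35.4, 87.7, 39.8 and 20.5 against 2439 and 489.8 (-4.74 ± 0.71, adjusted p = 0.000786), and the summed epithelial share was 0.000493% to 0.000954% in *Spalax* and 0.0181% and 0.00303% in the mice.

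Of the hypoxia microRNA miR-210, a target of hypoxia-inducible factor, only the lesser arm passed, with *Spalax* higher. miR-210-3p had 795, 583, 533 and 589 normalized counts in *Spalax* and 309.6 and 501 in the mice, with no overlap. Its log2 difference of 0.65 ± 0.33 did not pass (adjusted p = 0.151), and it was 0.30 without M1023. The lesser arm, miR-210-5p, had 130.4, 113, 169 and 165 against 47.6 and 60.8 and passed (1.39 ± 0.36, adjusted p = 0.0128). That call was lost in 4 of the alternative settings.

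Among families used by most tissues, let-7 was nearly level: 2 of 21 names passed with *Spalax* higher, 2 with the mouse higher, and the median was 0.29. Over all names 19.9% passed with *Spalax* higher and 22.9% with the mouse higher. The miR-23/27/24 clusters, known from muscle and endothelium, leaned to *Spalax*, with 5 of 10 higher there, 1 lower and a median of 0.94, and without M512 with 3 of 10 higher and a median of 0.42. Across the settings 1 to 5 passed with *Spalax* higher, and the calls of miR-24-3p and miR-23b-3p were lost in 14 and 8 of them. Their leading member, miR-27b-3p, which represses the satellite cell factor Pax3, had 570732, 679758, 448662 and 447261 against 186636 and 161039 (1.61 ± 0.22, adjusted p = 0.000578), and the lesser arms miR-24-1-5p and miR-24-2-5p went in opposite directions (1.70 and -5.37).

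The miR-26 and miR-101 families had 4 of 8 names higher in *Spalax* and 1 in the mouse, against 19.9% and 22.9% of all names, and 0 to 5 were higher in *Spalax* across the settings. miR-26a-5p had 1507667, 1698945, 1318815 and 1472265 against 962917 and 1063462 (0.56 ± 0.17, adjusted p = 0.0244), a call that was lost in 11 settings, edgeR with TMM and DESeq2 among them, and on the log2 scale miR-101b-3p gave -4.25 and miR-101a-3p 0.96. The miR-29 family, which represses collagen messengers, had 2 of 7 names higher in *Spalax*, near the 19.9% of all names and 0 to 4 across the settings, with none lower and a median of 0.85. In the miR-30 family miR-30d-5p was 1.34 ± 0.19 higher (adjusted p = 0.000648), miR-30a-5p did not pass (-0.54 ± 0.21, adjusted p = 0.0606), and 3 lesser arms were lower. The miR-99/100 and miR-125 families split, 3 higher and 2 lower of 11, with miR-99a-5p at 1.12 (0.48 without M1023, 1.77 without M512, not passed in 13 settings) and miR-99b-5p at -1.0 (-0.81 without M512).

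No name passed with *Spalax* higher in the family of miR-15, miR-16, miR-195 and miR-497, which restrains the cell cycle (0 of 11, 4 lower in *Spalax*), in the families of miR-148, miR-152, miR-130 and miR-301 (0 of 10, 3 lower) or in the cluster of miR-322 and miR-503 (0 of 8, 4 lower). Over all names 19.9% were higher and 22.9% lower in *Spalax*, so 3 of 10 lower is near the background, and in each of these lists 1 name passed with *Spalax* higher in some setting. The major arms were closer than the counts show: miR-16-5p had 102692, 114622, 99766 and 110713 against 111690.2 and 145684 (-0.26 ± 0.20, adjusted p = 0.318). The p53-responsive family of miR-34 and miR-449 had 2 of 4 lower in *Spalax*, with miR-34c-5p at 15.6, 11.4, 5.38 and 2.41 against 180.2 and 178 (-4.46 ± 0.66, adjusted p = 0.000757), while miR-34a-5p, at 499, 541, 549 and 413 against 429.7 and 249.6, did not pass (0.60 ± 0.33, adjusted p = 0.181).

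The miR-183, miR-96 and miR-182 cluster, known from sensory cells, passed as lower in *Spalax* for all 3 names tested, where 22.9% of all names did. Across the settings 0 to 3 passed as lower, and miR-96-5p did not pass in 8 of them. miR-182-5p had 203, 611, 167 and 589 against 11859.9 and 2472 (-4.02 ± 0.73, adjusted p = 0.00206), and miR-183-5p 77.9, 249, 81.8 and 366 against 1087 and 1519 (-3.04 ± 0.64, adjusted p = 0.00449). Sp976 and Sp2230 were above Sp600 and Sp2240 for both, and no *Spalax* reached a mouse. Among the 6 Hox-cluster names tested miR-10a-5p alone passed, at 52106, 35145, 54807 and 65473 against 251923 and 131093 (-1.84 ± 0.33, adjusted p = 0.00179).

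**Figure D3:**
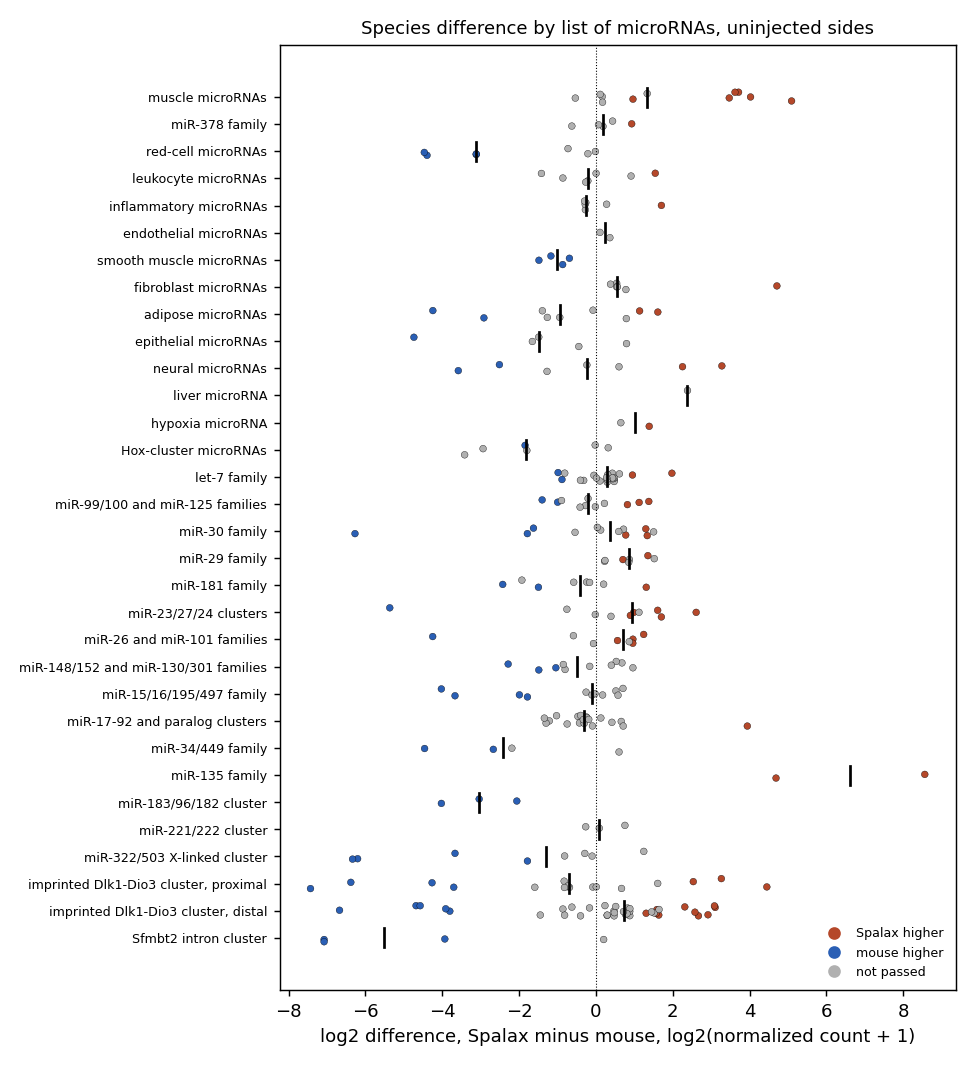
Log2 difference (*Spalax* minus mouse, on log2(normalized count + 1)) of each tested member of each list, 1 point a microRNA, with a bar at the median of the list, a dotted line at 0 and colors for names that passed in either direction or did not pass. The muscle list has members that passed only to the right of 0, the red-cell, smooth muscle and miR-183, miR-96 and miR-182 lists only to the left, and both parts of the Dlk1-Dio3 cluster spread over both sides.

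The ratio of the 3p to the 5p arm within a library does not depend on the scaling between libraries, and it differed between the species for 40 of 150 microRNAs with both arms counted (26.7%). *Spalax* had relatively more of the 3p arm for 14 (9.33%) and less for 26 (17.3%), and without M512 for 7 and 23. The test was limma on log2((3p + 1)/(5p + 1)) of normalized counts, and the 3p percentages did not overlap for 66 (44%). With the added 1, the tested ratio of an arm with few reads depends on the pseudocount and on the scaling.

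miR-339 had 3p shares of 1.85%, 0%, 1.54% and 0% in *Spalax* and 45.6% and 36.1% in the mice, with 46 to 64 5p reads in each *Spalax* library (log2 difference of the ratio -5.0 ± 0.51, adjusted p = 8.74e-05). So the deficit of miR-339-3p given above was much larger than that of its partner arm. miR-30b had a 3p share of at most 0.00463% in *Spalax*, 2 reads in all, against 0.919% and 1.07% (-7.57 ± 0.40, adjusted p = 1.4e-06), beside 18786 to 28550 5p reads in each *Spalax* library. In miR-15a the *Spalax* libraries held no 3p read beside 2965 to 4316 5p reads, and the mice 13 and 18. For miR-339, miR-30b and miR-15a no *Spalax* library held more than 1 3p read, so the sizes of these differences rest on the pseudocount.

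In miR-505 the 3p arm took 89.4%, 92.6%, 91.0% and 90.7% of the reads in *Spalax* and 57.1% and 66.7% in the mice (2.63 ± 0.43, adjusted p = 0.00155), with only 9 and 8 5p reads in the mice. For miR-500 the shares were 99.5% to 99.9% and 91.8% and 96.6% (4.40 ± 0.54, adjusted p = 0.000285). Its 5p arm had 1 to 5 reads in the *Spalax* libraries and 7 and 2 in M1023 and M512, so this value rests on few reads and the pseudocount. miR-191, whose 5p arm dominates, had 3p shares of 0.318% to 0.516% against 0.103% and 0.0687% (2.24 ± 0.28, adjusted p = 0.000349). In these 3 the groups did not overlap.

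The 3p share of miR-199b was 90.4% to 93.8% in *Spalax* and 99.7% and 99.3% in the mice (-4.17 ± 0.33, adjusted p = 1.32e-05), with its 3p reads counted also for miR-199a. miR-101b had 1 to 3 5p reads in each *Spalax* library and none in the mice, with 185 to 241 3p reads against 4548 and 3501. For miR-206 and miR-598 the test passed (2.16 and 3.01), but the 3p shares overlapped at 99.7% to 100% in all 6 libraries, with at most 7 5p reads in any, so these ratios rest on the pseudocount.

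**Figure D4:**
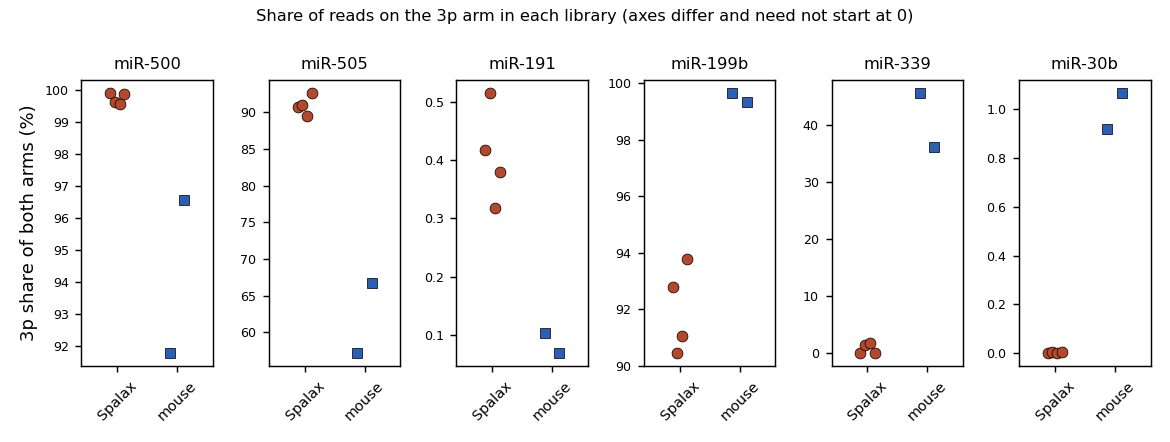
Share of reads on the 3p arm (percent of both arms, y axes that differ and need not start at 0) in each *Spalax* (circles) and mouse (squares) UIS library for 6 microRNAs. *Spalax* is above the mice in miR-500, miR-505 and miR-191 and below them in miR-199b, miR-339 and miR-30b, without overlap in any of these.

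Whether the species differed in muscle as they did in tumors was asked by setting the UIS difference against the difference between fibrosarcomas at the injected sides (IS; 2 *Spalax* and 3 mice) in 1 model of 13 libraries. The difference of differences passed for 96 of 437 microRNAs (22%), 72 of them (16.5%) higher for *Spalax* at the UIS than at the IS and 24 (5.49%) lower, and for 67 of the 96 the 2 differences had opposite signs. The sides also differ in tissue, muscle against tumor, and the IS libraries were shallower, at 2034574 to 9574014 reads. With scaling to library totals 106 passed, 99 and 7, and 93.4% rather than 75% of the calls were positive, so the split between the directions depends on the scaling.

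The clearest group was the imprinted Dlk1-Dio3 cluster, a maternally expressed run of microRNAs active in embryos and in regenerating muscle. All 16 tested names of its proximal part and 35 of 38 of its distal part were relatively higher for *Spalax* at the UIS, against 16.5% of all names tested. Without M512 the counts were 14 of 16 and 27 of 38. With it, the exceptions were miR-376b-5p, miR-154-5p and miR-494-3p. At the UIS the cluster was mixed, with 3 higher and 4 lower of 16 (median -0.71) and 10 higher and 5 lower of 38 (median 0.74). At the IS 15 of 16 and 36 of 38 names were lower in *Spalax* fibrosarcoma than in mouse fibrosarcoma, with medians of -5.84 and -4.79, while 26.5% of all names were lower there and the median of all was 0.01.

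Single members show the pattern. miR-127-3p, its most abundant, had 10264, 12305, 7559 and 5459.6 normalized counts in *Spalax* UIS and 15707 and 11927 in mouse UIS (log2 difference -0.69 ± 0.34, adjusted p = 0.141), a difference of -5.78 between the fibrosarcomas, and a contrast of 5.10 between the sides (adjusted p = 0.00227). miR-495-3p had 111, 137, 81.8 and 37.3 against 12.4 and 6.24 (3.08 ± 0.58, adjusted p = 0.00265), -5.26 between the fibrosarcomas and a contrast of 8.34 (adjusted p = 0.000435). miR-381-3p had 4735, 8569, 2876 and 2556 against 607 and 384 (3.10 ± 0.48), -3.71 and a contrast of 6.82 (adjusted p = 0.00113). For miR-370-3p, with 34, 15.2, 33.4 and 21.7 against 6.21 and 0 (3.26 at the UIS, 1.84 without M512), the contrast was 8.81 (adjusted p = 0.00113).

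Some of the muscle differences had the opposite sign at the IS. miR-135a-5p gave 8.56 at the UIS and -3.20 between the fibrosarcomas (contrast 11.76, adjusted p = 0.00113), and its partner miR-135a-2-3p gave 4.69, -0.90 and 5.59. miR-206-3p gave 4.02 at the UIS and -5.72 between the fibrosarcomas (contrast 9.74, adjusted p = 0.0251), and miR-208b-3p 3.47 and -5.55 (9.02, adjusted p = 0.0396). In the fit of 13 libraries that gave these contrasts, the UIS differences of miR-206-3p and miR-208b-3p did not pass. Of the 11 muscle names 4 passed as lower in *Spalax* at the IS, where 26.5% of all names did. miR-133a-3p, level at the UIS, gave -4.77 between the fibrosarcomas, and its contrast of 4.88 did not pass (adjusted p = 0.249). Of the 11 tested muscle names 4 passed this contrast, all positive, where 16.5% of all names did, and 1 without M512.

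The names almost without reads in *Spalax* UIS were also low in *Spalax* fibrosarcoma. miR-676-3p gave -9.95 at the UIS and -9.63 at the IS (contrast -0.32, adjusted p = 0.852), miR-345-5p -8.43 and -8.56 (0.13, adjusted p = 0.925), and miR-1198-5p -8.64 and -7.68 (-0.96, adjusted p = 0.34). Of the excesses, miR-199b-5p gave 4.71 and 4.29 (0.42, adjusted p = 0.823). The first 3 were at or near 0 in *Spalax* at the UIS, so their values depend on the pseudocount and their contrasts are no measure of likeness. With scaling to library totals their UIS differences were -6.66, -4.78 and -4.80.

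In the other direction miR-204-5p, a microRNA of the Trpm3 gene known from epithelium and eye, had 316, 611, 371 and 672 normalized counts in *Spalax* UIS against 1249.9 and 941 (-1.21 ± 0.39, adjusted p = 0.0312, and -1.41, not passed, without M512) but was 4.16 higher in *Spalax* between the fibrosarcomas (contrast -5.37, adjusted p = 0.00967). miR-146b-5p, an inflammatory microRNA, overlapped at the UIS, at 1963, 837, 2933 and 4302 against 2992 and 2293, and was 4.00 higher in *Spalax* fibrosarcoma (contrast -4.30, adjusted p = 0.011). miR-338-5p and miR-338-3p gave contrasts of -3.71 and -3.35, and miR-16-5p, level at the UIS, one of -1.60 (adjusted p = 0.011) that did not pass without M512 or with scaling to library totals.

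**Figure D5:**
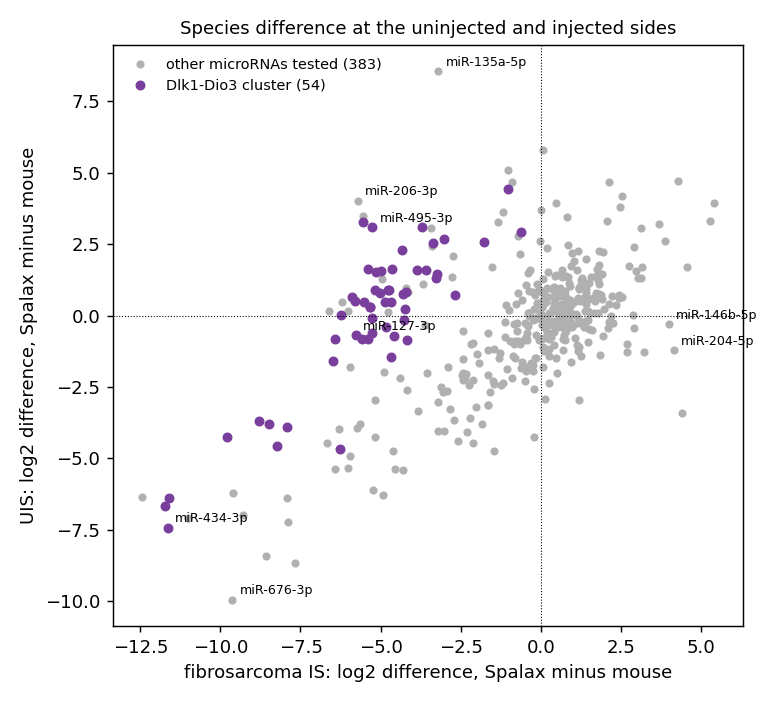
Log2 difference (*Spalax* minus mouse) between the fibrosarcomas at the IS (x axis) and at the UIS (y axis) for the 437 microRNAs tested, each point a microRNA and the 54 of the Dlk1-Dio3 cluster in purple, with dotted lines at 0. The cluster lies to the left of 0 on the x axis and on both sides of 0 on the y axis, and miR-135a-5p and miR-206-3p lie at upper left.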

How the data were processed

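Small RNA libraries (TruSeq Small RNA kit) of each side of each animal were sequenced by the authors, adaptors were trimmed and reads were assigned to mouse microRNA names. The paper's methods name mirDeep and DESeq2, the submitters' processing notes TopHat 1.4.1, HTSeq, DESeq and build GRCm38, so which tool made the counts cannot be settled here. The deposited values are signal: whole read counts that the authors had divided by one scaling factor per library, set over the libraries of both species together. Whole reads were recovered for 100% of the values, within a tolerance of 0.01 reads, and depth was taken from them (11557482 to 13982842 per library). Intervals and floors cover counting error only, since reads without molecular identifiers are not independent molecules.

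The log2 of the value plus a pseudocount of 1 was tested with limma 3.58.1 (trend, R 4.3.3), *Spalax* minus mouse, with Benjamini-Hochberg adjustment over all 437 microRNAs that reached 10 in at least 2 of the 6 libraries and had a read in each species. The contrast of the sides used 13 libraries with 5 group means, and arm ratios used pairs with a summed value of at least 20 in every library. Shares of reads were compared by exact permutation (scipy 1.17.1). edgeR 4.0.16 and DESeq2 1.42.0 on the recovered reads were alternatives. The species fits and the contrast of the sides were run on simulated data, with the same spread set for all names and libraries. The arm ratio test and the permutation of shares were not. That run does not show how the tests behave with mice as unlike as M1023 and M512. No pair of libraries agreed within sampling noise, so none was counted as a duplicate. P-values measure the spread between single libraries of separate animals. The named microRNAs were the 10 most abundant, the 12 largest rises and falls that passed without overlap and with a mean of at least 100 in the higher species, the 5 smallest p-values of the side contrast and the 5 largest arm ratio differences in each direction, all muscle names, and up to 4 of the most abundant of each other list, and names given beyond these were chosen after their values were seen. The members and lists were chosen with earlier results of these data known. Hairpins were read from the GENCODE annotation of GRCm38. Mature ends were not in the reference used. Same-numbered libraries of the sides came from the same animal, and the fit with the animal as a block is given with the alternatives.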

Additional observations from a re-analysis of the deposited data

Results flagged for a closer look

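Among 134 groups of 4 *Spalax* UIS values tested for a library far from the others (Dixon's ratio), 13 were marked. Chance marks about 1 in 20 where values are normal. These were normalized counts without a log, and some names held identical values, so an excess over chance is not shown. Sp2230 held the outlying value for miR-451a (73633), miR-126b-3p (21.7), miR-455-3p (459.8), miR-93-5p (7329) and, on the low side, miR-133b-3p (53830.3). Sp600 held it for miR-1a-3p (308805), miR-351-5p (164), miR-541-5p (25.5) and miR-181d-5p (748), Sp976 for miR-29b-3p (6221) and the identical miR-669a-5p and miR-669p-5p (17.8), and Sp2240 for miR-125b-5p (58111).

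For 33 named microRNAs the species difference at the UIS differed from that between the fibrosarcomas by the test of the contrast itself (limma, adjusted p under 0.05), 21 positive and 12 negative. Of the Dlk1-Dio3 cluster, the contrast was 8.81 for miR-370-3p, 8.34 for miR-495-3p, 6.82 for miR-381-3p, 6.32 for miR-410-3p, 5.88 for miR-341-3p, 5.46 for miR-493-5p, 5.22 for miR-434-5p, 5.18 for miR-136-3p, 5.14 for miR-411-5p, 5.10 for miR-127-3p, 5.05 for miR-541-5p and 4.21 for miR-434-3p. Of the muscle list, it was 9.74 for miR-206-3p, 9.02 for miR-208b-3p, 4.81 for miR-499-3p and 3.71 for miR-1a-2-5p. The other positive values were 11.76 for miR-135a-5p, 6.12 for miR-351-5p, 5.75 for miR-935, 5.59 for miR-135a-2-3p and 1.94 for miR-27b-3p.

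The negative values were -5.37 for miR-204-5p, -4.30 for miR-146b-5p, -3.71 for miR-338-5p, -3.35 for miR-338-3p, -3.24 for miR-455-3p, -3.06 for miR-193a-3p, -2.41 for miR-128-1-5p, -1.98 for miR-25-3p, -1.96 for miR-181b-5p, -1.91 for miR-106b-3p, -1.60 for miR-16-5p and -1.39 for miR-181a-5p.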

How the results depend on the processing

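The number of microRNAs past the threshold between the species was 187 (limma) and ranged from 129 to 255 over the alternatives, except with sex as a covariate, where 92 passed (35 with *Spalax* higher, 57 with the mouse higher), since species then rests on 1 male *Spalax* against the mice. Leaving out 1 library gave 136 to 179, the lowest without M512. edgeR called 185 (74 and 111) and DESeq2 193 (86 and 107). With the animal as a replicate block, 97 rather than 96 passed the contrast of the sides (73 and 24), and without 1 library 65 to 87. For arm ratios 40 passed, and without 1 library 30 to 44. The muscle share difference was 7.39 to 8.41 points without 1 library. In alternatives chosen after seeing the data it was 4.39 with identical names counted once and -1.13 with miR-486 left out of the total. miR-196a-5p turned from -3.42 to 2.54 without M512 and was -9.38 without M1023. Of 3555 alternative values of the named microRNAs 3307 stayed on their side of the threshold, without regard to the sign of names that did not pass, and 33 of 71 named calls held under every alternative other than leaving out a library. Scaling to totals shifted the median of all names by 0.17 at the UIS and by 0.65 in the contrast of the sides.

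Precision was limited by 2 mouse libraries that differed from each other, and by counts of 3 reads or fewer for the largest deficits.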
